A study of Mus musculus with 16 samples.

Results

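The effect of Degs1 loss averaged over both diets was measured in all 16 mouse livers of the series, 8 with a liver-specific knockout of Degs1 and 8 from control animals, with diet as a covariate so that each knockout is set against controls on its own diet. The 4 groups were control on normal chow, knockout on normal chow, control on a high-fat diet and knockout on a high-fat diet, with 4 livers in each. The labels used here give the controls no further genotype and name no strain, sex, age, feeding time, Cre driver or deleted part of Degs1. Each liver carries its own number, read here as its animal, and gave 1 ribosome-depleted total RNA library. On each diet the numbers of the genotypes do not mix (179 to 187 for knockouts and 194 to 220 for controls on chow, 82 to 92 and 61 to 76 on the high-fat diet), so that anything that goes with animal number cannot be told apart from genotype. The account below is of genes that moved the same way on both diets.

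Degs1 encodes dihydroceramide desaturase, which inserts the double bond that turns dihydroceramide into ceramide in the endoplasmic reticulum. Ceramide is the hub of sphingolipid metabolism, from which sphingomyelin and glycosphingolipids are built, and in liver it is known for its links to insulin resistance and fat storage. Loss of the desaturase lets dihydroceramides build up in place of ceramides. Lipid levels were not measured here.

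Library totals ran from 11938596 to 23250885 counts, and a count of 3 corresponds to 0.129 to 0.251 CPM (counts scaled to a common library size, after TMM factors). All 12 hepatocyte markers were tested, and their summed level was 64300 to 150000 CPM across the livers. The share of counts on sense-intronic genes and on gene models of unproven status (class TEC), used here to gauge unspliced RNA, differed between genotypes. It was 0.0263 to 0.0411% in chow controls, 0.0463 to 0.0878% in chow knockouts, 0.0218 to 0.164% in high-fat controls and 0.162 to 0.191% in high-fat knockouts. The knockouts were apart from the controls on chow and overlapped them on the high-fat diet. The mean difference was 1.11 on the log2 scale (two-sided exact permutation test within diets, p = 0.000816, adjusted p = 0.0122 over 15 library measures). Malat1, a nuclear long noncoding RNA, differed by 1.20 on the same scale without passing (exact permutation p = 0.00939, adjusted p = 0.0704). The summed markers of 11 cell types, possible contaminants included, did not pass either, and the lowest adjusted p among them was 0.349 by the same exact test, for erythroid genes. Cela1 made up most of the fat and pancreas sum, which therefore says little of fat. The fat markers Adipoq, Lep and Plin1, too scarce to be tested, had means of 1.66, 1.29 and 1.01 CPM in high-fat knockouts. In high-fat controls they had 0.0338, 0 and 0.0588 CPM, while Cfd was lower in knockouts (3.12 against 3.96 CPM). Adipoq and Plin1 were at 0 in 10 of the 16 livers and Lep in 12, and their part in the results was not tested. A refit with the unspliced share as a covariate was run, and its values stand beside many of the results below. In bulk liver, fewer cells of a type and less RNA per cell cannot be told apart.

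**Figure D1:**
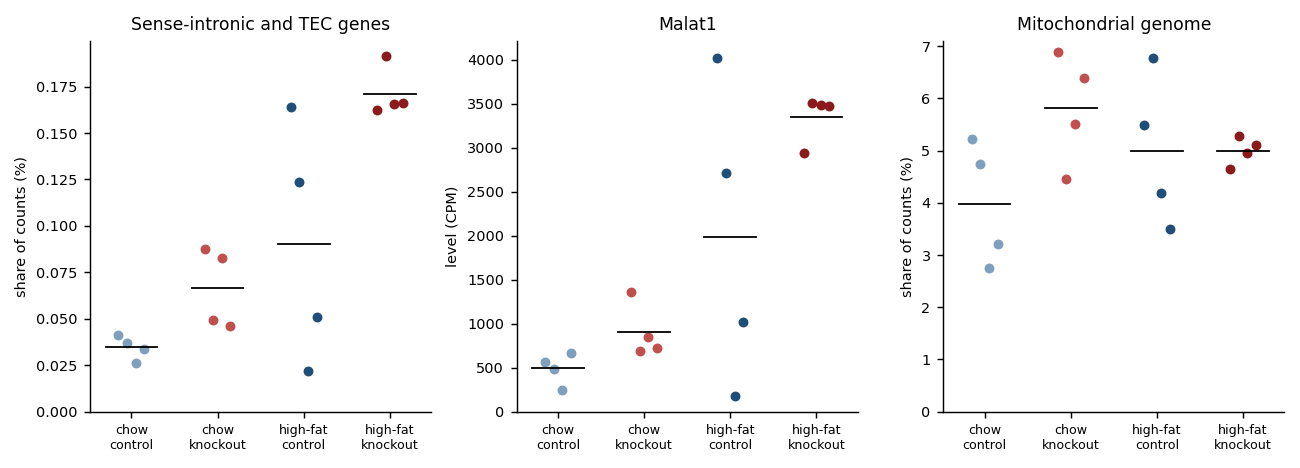
Share of counts on sense-intronic and TEC genes (%), Malat1 (CPM) and share of counts on the mitochondrial genome (%) in each liver, by group, with points for livers and bars for group means. The unspliced share of the chow knockouts, at 0.0463% and above, lies over that of every chow control, and the high-fat controls spread from 0.0218 to 0.164%.

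All 8 knockout livers lay below the controls of their diet for Degs1. Its level was 80.4, 84.9, 85.5 and 87.9 CPM in chow controls and 35.9, 37.4, 39.3 and 39.3 CPM in chow knockouts. It was 60.2, 62.2, 70.3 and 101 CPM in high-fat controls and 26.1, 28.1, 29.2 and 41.6 CPM in high-fat knockouts. The knockout means were 44.9% of the control mean on chow and 42.6% on the high-fat diet. The average log2 fold change was -1.19, SE 0.12 (edgeR adjusted p = 4.5e-05, n = 8 livers per genotype). A two-sided exact permutation test within diets gave p = 0.000408, the smallest that its 4900 assignments allow. The counts cover the whole gene (chr1:182275772-182282804, minus strand of GRCm38), so transcript that lacks a deleted part would still be counted. The part of such transcript, or of cells in bulk liver that kept Degs1, in the remaining level was not tested. A refit that adds the unspliced share gave -0.94 for Degs1 (edgeR adjusted p = 0.00319). Of the 11 other genes tested within 1 Mb of Degs1, 0 were called, with log2 fold changes from -1.30 to 0.44.

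Besides Degs1, the genes that fell on average included 3 major urinary protein genes, Dct, Oat and Gna14, and the genes that rose were Lpl, Eda2r and the gene model Gm44901. Of 14351 genes tested, 18 passed at an adjusted p under 0.05 (0.125%), with 3 higher (0.0209%) and 15 lower (0.105%) in the knockouts. At an unadjusted p under 0.05 there were 2794 genes (19.5%), 1236 higher (8.61%) and 1558 lower (10.9%). All 18 had the same sign on both diets, as did 59.5% of all genes. Of the 18, 16 were apart on both, meaning that every knockout liver lay on the same side of every control on its diet. Among all genes, 0.739% were apart on both in the same direction. The exceptions were Lpl, which overlapped on the high-fat diet, and Dct, which overlapped on chow. The 18 were picked by the average of both diets' effects, which favours a shared sign and separation, so these counts are no separate support. In a model of the 4 groups, whose spread comes from all 16 livers, 1 of the 18 passed on chow and 5 on the high-fat diet. Of all genes 0.0139% and 0.111% did, and the way the 18 were picked keeps this from being a fair comparison. Fits of the chow livers alone and of the high-fat livers alone called 1 gene each. For the difference between the diets' knockout effects, edgeR called 0 genes (0%; 1615 at an unadjusted p under 0.05; DESeq2 called 83, limma-voom 0 and limma-voom with quality weights 9). Among the 18, that test gave an adjusted p of 0.509 or higher, which does not show that the diets act alike. DESeq2 called 119 higher and 135 lower in the average effect, including all 18, and library totals without scaling factors gave 3 higher and 7 lower.

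**Figure D2:**
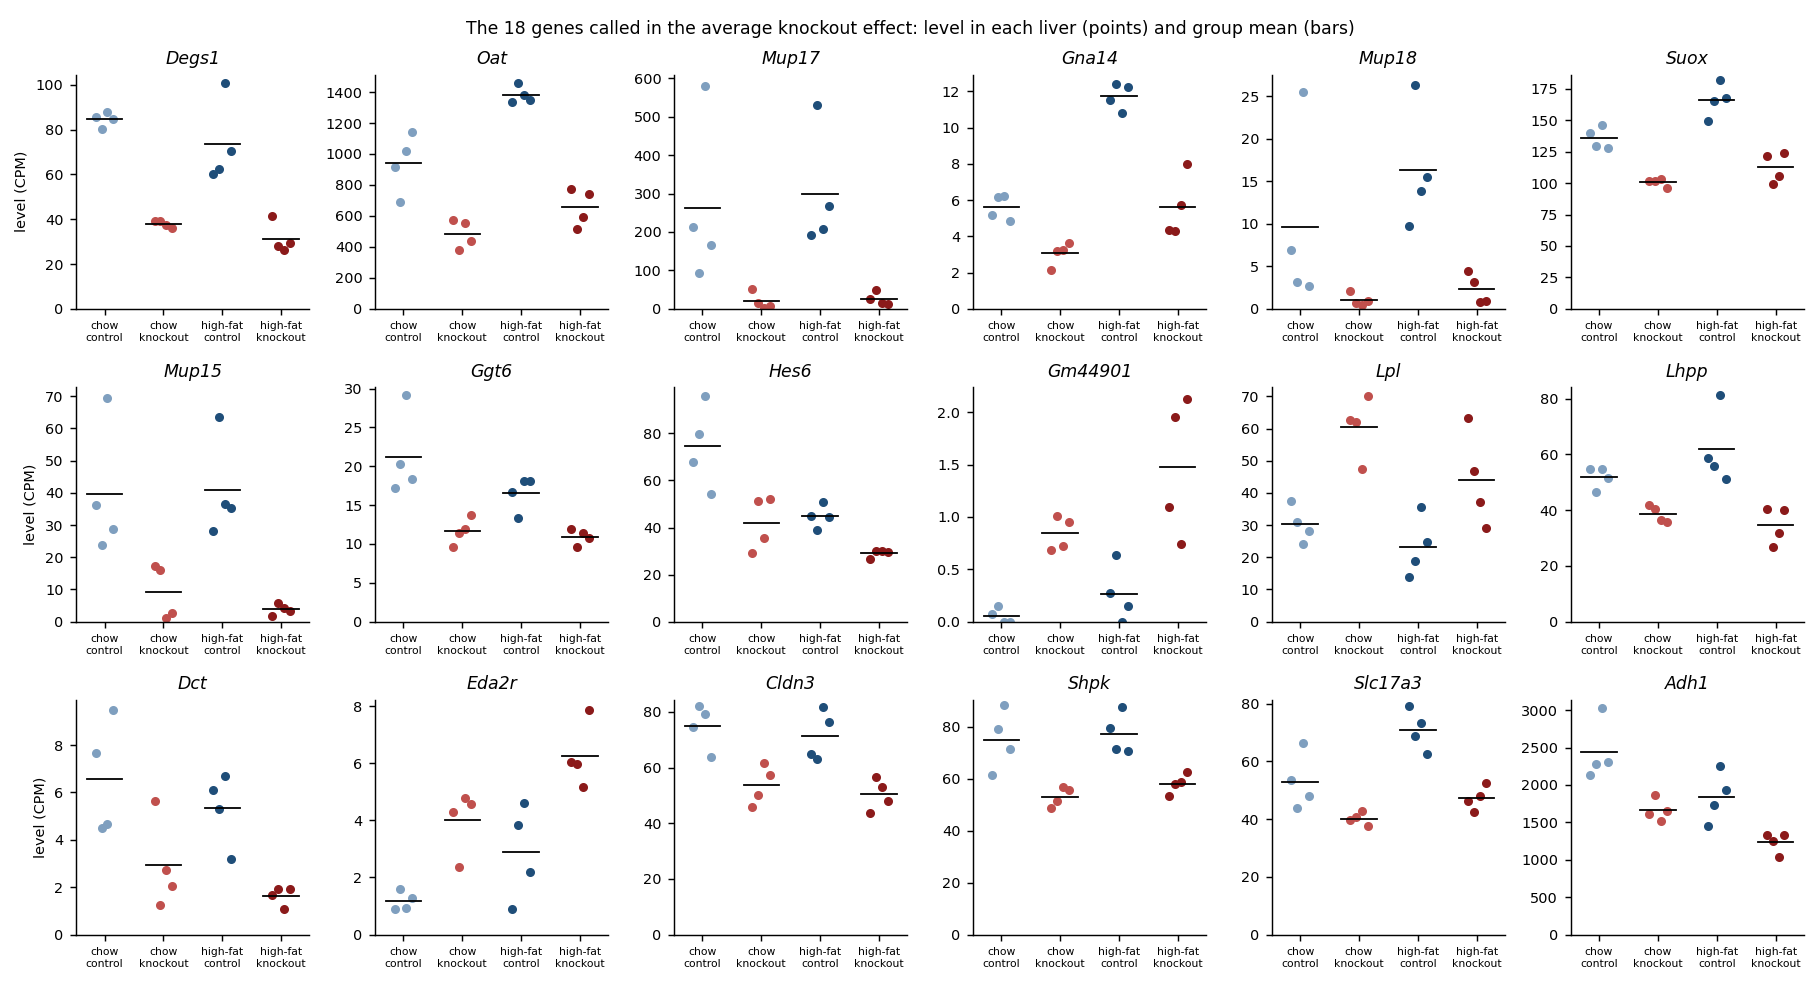
Level (CPM, axes from 0) of each of the 18 called genes in each liver, by group, with points for livers and bars for group means. Degs1, Oat and the 3 Mup genes are low in every knockout liver of both diets, and the groups overlap for Lpl on the high-fat diet and for Dct on chow.

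**Figure D3:**
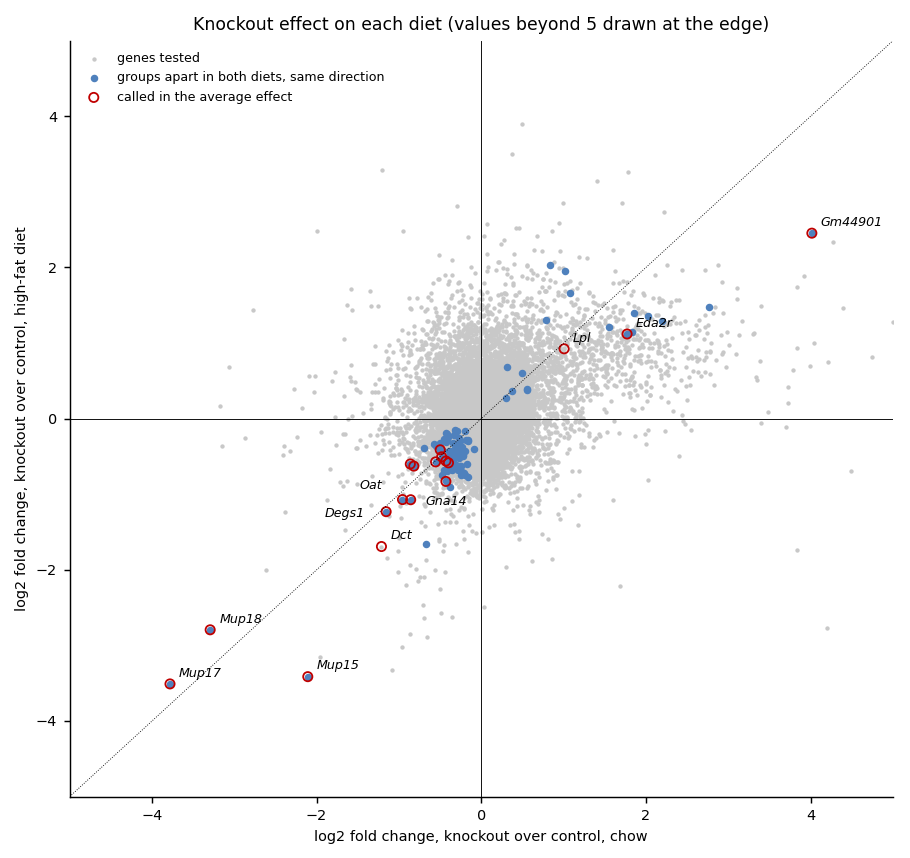
Log2 fold change of knockout over control on chow (horizontal) against that on the high-fat diet (vertical) for the 14351 genes tested. Red rings mark the 18 called genes, all with the same sign on both axes, and blue points the 106 genes apart in the same direction on both diets.

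Major urinary proteins (Mup) are small lipocalins that the liver secretes for pheromone signalling through urine, and their genes form a tandem cluster on mouse chromosome 4. Many copies are closely alike, also upstream of the gene, as the 200 bases before the start of the 3 called genes show. These are RefSeq promoter sequences (GRCm38.p6, minus strand, 5′ to 3′), placed outside the transcript in both RefSeq and GENCODE. Capitals mark bases with no identical partner in Mup15 when the whole RefSeq windows are aligned with free ends. Bases that Mup15 has in addition are not marked, and the place of a difference within a run of a is arbitrary. The windows lie at chr4:61439744-61439943 for Mup15, chr4:61595872-61596071 for Mup17 and chr4:61674137-61674336 for Mup18.
Mup15: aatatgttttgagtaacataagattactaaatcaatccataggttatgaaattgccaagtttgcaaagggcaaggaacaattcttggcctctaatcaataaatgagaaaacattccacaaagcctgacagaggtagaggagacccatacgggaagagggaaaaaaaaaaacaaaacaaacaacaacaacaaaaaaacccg
Mup17: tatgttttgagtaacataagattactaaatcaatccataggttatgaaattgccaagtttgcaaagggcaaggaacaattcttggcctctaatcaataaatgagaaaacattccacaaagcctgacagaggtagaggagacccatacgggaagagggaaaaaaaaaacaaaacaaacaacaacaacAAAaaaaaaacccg
Mup18: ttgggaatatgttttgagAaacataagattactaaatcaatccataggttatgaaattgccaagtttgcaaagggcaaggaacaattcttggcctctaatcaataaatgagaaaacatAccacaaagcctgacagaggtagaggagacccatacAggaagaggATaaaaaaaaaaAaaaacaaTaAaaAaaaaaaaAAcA
Over the stretches shared by both windows, inner gaps counted, Mup15 and Mup17 were identical in 98% of aligned positions, and Mup18 was identical to each of them in 91.5%. In the transcripts, 100% of the 50-base stretches of Mup15, 78.1% of those of Mup17 and 89.6% of those of Mup18 also occur in other genes. How reads that map to several copies were counted is not stated in the labels or notes, so the level of a single Mup gene is uncertain.

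Mup17, Mup18 and Mup15 had the largest falls among the 15 genes that fell. Mup17 stood at 94.0, 165, 213 and 581 CPM in chow controls and 3.38, 6.97, 15.8 and 51.7 CPM in chow knockouts, and at 192, 207, 266 and 530.5 CPM in high-fat controls and 13.8, 16.3, 25.8 and 48.8 CPM in high-fat knockouts. No knockout liver reached the lowest control of its diet, and both genotypes varied widely between livers. The log2 fold change was -3.64, SE 0.50 (edgeR adjusted p = 0.00314), a 12.5-fold lower level. Mup18 was much less abundant, at 2.66, 3.12, 6.92 and 25.5 CPM in chow controls against 0.483, 0.651, 0.888 and 2.15 CPM in chow knockouts. Its high-fat levels were 9.77, 13.8, 15.5 and 26.2 CPM in controls and 0.746, 0.932, 3.19 and 4.42 CPM in knockouts. The groups were again apart on both diets, and the log2 fold change was -3.01, SE 0.49 (edgeR adjusted p = 0.0154). Mup15 was at 23.9, 28.7, 36.2 and 69.3 CPM in chow controls and 1.09, 2.73, 16.1 and 17.3 CPM in chow knockouts. On the high-fat diet it was at 28.1, 35.3, 36.5 and 63.6 CPM in controls and 1.82, 3.33, 4.37 and 5.76 CPM in knockouts. The chow knockouts split into a pair near the lowest control and a pair far under it, while all high-fat knockouts were far under their controls. The log2 fold change of Mup15 was -2.74, SE 0.45 (edgeR adjusted p = 0.0154), with -2.11 on chow and -3.41 on the high-fat diet. The Mup18 call ended without chow knockout 2 (-2.92, edgeR adjusted p = 0.0514). The Mup15 call ended without chow control 3 (-2.61, 0.0573), high-fat knockout 2 (-2.78, 0.0627) or high-fat knockout 4 (-2.65, 0.0578), as edgeR adjusted p. In the covariate refit, Mup17 passed (-4.02, edgeR adjusted p = 0.0235), and Mup18 (-2.94, 0.197) and Mup15 (-2.72, 0.153) did not.

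All 20 Mup genes tested of 22 had a log2 fold change below 0, as did 48.6% of all genes tested, with a median of -1.19 against 0.01. The list median was -0.56 on chow and -1.75 on the high-fat diet, and 16 of the 20 (80%) were lower on both, against 29.1% of all genes. Only the 3 above passed, and 15 of the 20 had an unadjusted p under 0.05 in the lower direction (75% against 10.9% of all genes). The members can share reads, so they are not independent measurements. The fold changes ran from -3.64 for Mup17 to -0.05 for Mup20. Mup3, Mup4, Mup20 and Mup21, picked out after their values were seen, had log2 fold changes of -0.28, -0.24, -0.05 and -0.09, and on chow all 4 were above 0, at 0.21, 0.59, 0.22 and 0.23. Those 4 are among the copies with the least shared sequence, at 13.3, 12.4, 50.5 and 19.3% of their 50-base stretches, though Mup6, likewise picked out, with 4%, had -1.36, SE 0.37 (edgeR adjusted p = 0.15). Mup20 encodes darcin, a male pheromone. The list median was between -1.30 and -1.12 under the other scaling factors and the covariate. On library totals only, 18 of the 20 were below 0, and with the covariate 17 were.

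Oat and Lhpp, which are neighbours on chromosome 7 and both known as genes of hepatocytes near the central vein, fell together. Oat encodes ornithine aminotransferase, a mitochondrial enzyme that converts ornithine on the way to glutamate. Its level was 691, 915, 1019 and 1141 CPM in chow controls and 378, 437, 554 and 571 CPM in chow knockouts. It was 1335, 1349, 1382 and 1459 CPM in high-fat controls and 516, 595, 741 and 777 CPM in high-fat knockouts. The high-fat controls lay close together at about the highest level of all, and no knockout liver overlapped its controls on either diet. The log2 fold change of Oat was -1.01, SE 0.12 (edgeR adjusted p = 0.000947), a 2.02-fold lower level. Lhpp encodes a phosphatase of phosphohistidine. It was at 46.5, 51.4, 54.6 and 54.8 CPM in chow controls and 35.6, 36.3, 40.3 and 41.8 CPM in chow knockouts, and at 51.3, 55.8, 58.9 and 81.3 CPM and 26.9, 31.9, 39.9 and 40.4 CPM on the high-fat diet. The groups were apart on both diets, more narrowly on chow, and the log2 fold change was -0.63, SE 0.12 (edgeR adjusted p = 0.0444). The difference between its effects on the 2 diets, -0.43 and -0.83, had an edgeR adjusted p of 0.509. Oat (chr7:132557478-132576398, minus strand of GRCm38) and Lhpp (chr7:132610638-132706420, plus strand) point away from each other with 34239 bp between them. That gap holds 2 annotated genes, 0 of which were abundant enough to be tested. Of the 10 other genes tested within 500 kb, 0 were called, with log2 fold changes from -0.11 to 1.96, the 2 highest being TEC gene models. Oat passed in all 16 fits that left out 1 liver and with the covariate (-1.05, edgeR adjusted p = 0.0169). Lhpp passed in 2 of these fits, without chow knockout 1 (-0.66, edgeR adjusted p = 0.0486) or high-fat control 3 (-0.53, 0.0307), and its log2 fold change was -0.67 to -0.53 over the 16. It did not pass with the covariate (-0.46, edgeR adjusted p = 0.489).

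In the list of 24 pericentral genes, Oat and Lhpp were the 2 called members, where 0.105% of all genes were called lower. A value below 0 was found for 18 of 24, against 48.6% of all genes. The list median was -0.16, and -0.28 with the covariate, and 13 (54.2%) were lower on both diets against 29.1% of all genes. Glul, the glutamine synthetase that marks the innermost pericentral cells, had -0.33, SE 0.14 (edgeR adjusted p = 0.207). Lect2, a secreted hepatocyte protein, had -0.50, SE 0.15 (0.153). The 20 periportal and urea cycle genes held no called member, with a median of -0.29, or -0.19 with the covariate, and 15 (75%) lower on both diets. Nags, which makes the activator of the urea cycle's first enzyme, had -0.34, SE 0.09 (edgeR adjusted p = 0.15), and Slc25a15, the mitochondrial ornithine carrier, had -0.29, SE 0.09 (0.154).

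Gna14, Suox, Ggt6 and Hes6 were lower in the knockouts with no overlap on either diet. Gna14 encodes an alpha subunit of the Gq class of G proteins, which couple receptors to phospholipase C. It was at 4.83, 5.19, 6.17 and 6.21 CPM in chow controls and 2.15, 3.20, 3.26 and 3.62 CPM in chow knockouts, and at 10.8, 11.5, 12.2 and 12.4 CPM and 4.32, 4.37, 5.76 and 7.99 CPM on the high-fat diet. The high-fat knockouts stood at about the level of the chow controls, and the high-fat controls well above both. Its log2 fold change was -0.97, SE 0.15 (edgeR adjusted p = 0.00967). Gna14 passed in all 16 fits that left out 1 liver, and it did not pass in the covariate refit (-0.93, edgeR adjusted p = 0.153).

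Suox encodes sulfite oxidase, the mitochondrial enzyme that ends sulfur amino acid breakdown. Its levels were 128, 129, 139.7 and 147 CPM in chow controls, 96.4, 101, 102 and 104 CPM in chow knockouts, 149.8, 166, 168 and 182 CPM in high-fat controls and 99.5, 106, 122 and 124 CPM in high-fat knockouts. The spread within groups was small, and the difference of -0.50 on the log2 scale, SE 0.08, passed (edgeR adjusted p = 0.0154). Of the 17 genes of sulfur amino acid metabolism tested, Suox was the only one called, and 10 (58.8%) were lower on both diets. Cth, the cystathionine lyase that makes cysteine, was apart on both diets at -0.61, SE 0.14 (edgeR adjusted p = 0.116). Csad, which makes the taurine precursor hypotaurine, had 0.87, SE 0.31 (0.176). The Suox call ended without chow control 3 (edgeR adjusted p = 0.0553), chow knockout 4 (0.0517), high-fat control 4 (0.0553), high-fat knockout 2 (0.0672) or high-fat knockout 3 (0.0525), with values from -0.51 to -0.45 over the 16 fits. With the covariate it was -0.41 (edgeR adjusted p = 0.285).

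Ggt6 encodes a member of the gamma-glutamyltransferase family, whose best known enzyme splits glutathione. It was at 17.1, 18.4, 20.3 and 29.2 CPM in chow controls and 9.56, 11.4, 11.96 and 13.8 CPM in chow knockouts, and at 13.3, 16.8, 18.1 and 18.1 CPM and 9.62, 10.7, 11.5 and 11.9 CPM on the high-fat diet. All 8 knockout livers lay under the lowest control of their diet, and the log2 fold change was -0.73, SE 0.13 (edgeR adjusted p = 0.0242). Hes6 encodes a helix-loop-helix transcription factor of the Hes family. Its levels were 54.3, 67.7, 79.8 and 96.1 CPM in chow controls, 29.3, 35.6, 51.3 and 52.3 CPM in chow knockouts, 39.1, 44.5, 44.9 and 51.0 CPM in high-fat controls and 26.7, 29.7, 29.9 and 29.9 CPM in high-fat knockouts. The chow groups came close, at 52.3 CPM for the highest knockout and 54.3 CPM for the lowest control, and the log2 fold change of Hes6 was -0.72, SE 0.13 (edgeR adjusted p = 0.0405). The Ggt6 call ended without chow knockout 2 (edgeR adjusted p = 0.0567), chow knockout 3 (0.0703), high-fat control 4 (0.0687), high-fat knockout 2 (0.0855) or high-fat knockout 4 (0.0578). Hes6 passed in 5 of 16 such fits, those without chow control 4, chow knockout 1, chow knockout 4, high-fat control 1 or high-fat control 2, with values from -0.77 to -0.65 over the 16. Neither passed with the covariate, at -0.57 for Ggt6 (edgeR adjusted p = 0.419) and -0.54 for Hes6 (0.436).

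The remaining genes that fell were Cldn3, Shpk, Slc17a3, Adh1 and Dct. Cldn3 encodes claudin 3, a tight junction protein, and had -0.49 on the log2 scale, SE 0.09 (edgeR adjusted p = 0.0448). Its levels were 63.8 to 82.2 CPM in chow controls against 45.6 to 61.5 CPM in knockouts, and 63.1 to 81.9 against 43.7 to 56.6 CPM on the high-fat diet. Shpk encodes sedoheptulokinase, which feeds sedoheptulose into the pentose phosphate pathway, and had -0.46, SE 0.09 (edgeR adjusted p = 0.0448). It was at 61.4 to 88.2 CPM in chow controls, 48.7 to 56.7 CPM in chow knockouts, 70.7 to 87.7 CPM in high-fat controls and 53.4 to 62.4 CPM in high-fat knockouts. Slc17a3, an organic anion transporter, had -0.49, SE 0.10 (edgeR adjusted p = 0.0448). Its ranges were 43.8 to 66.5 CPM and 37.6 to 42.9 CPM on chow, and 62.5 to 79.2 CPM and 42.4 to 52.6 CPM on the high-fat diet, controls first. Adh1, the main liver alcohol dehydrogenase, had -0.56, SE 0.11 (edgeR adjusted p = 0.0492). Its ranges were 2139 to 3032 CPM and 1517 to 1861 CPM on chow and 1449 to 2251 CPM and 1039 to 1331 CPM on the high-fat diet, controls first. For these 4 genes the knockout group ended below the start of the control group on each diet. All 4 were near the threshold, and their calls were lost in most fits that left out 1 liver, whichever it was. Cldn3 passed in 2 of 16 such fits (those lacking chow control 4 or high-fat control 1). Shpk (without chow control 1), Slc17a3 (without chow control 2) and Adh1 (without high-fat control 1) passed in 1 each. None of the 4 passed with the covariate, where the log2 fold changes were -0.37 for Cldn3 (edgeR adjusted p = 0.489), -0.38 for Shpk (0.421), -0.49 for Slc17a3 (0.292) and -0.32 for Adh1 (0.649). Over the fits that left out 1 liver they were -0.53 to -0.44 for Cldn3, -0.50 to -0.41 for Shpk, -0.54 to -0.44 for Slc17a3 and -0.61 to -0.50 for Adh1.

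Dct encodes dopachrome tautomerase, an enzyme of melanin synthesis in pigment cells, and is named here after its values were seen. It was at 4.49, 4.67, 7.68 and 9.47 CPM in chow controls and 1.24, 2.05, 2.72 and 5.66 CPM in chow knockouts, and at 3.20, 5.29, 6.10 and 6.70 CPM and 1.07, 1.66, 1.90 and 1.93 CPM on the high-fat diet. Chow knockout 1, at 5.66 CPM, lay among the controls, and the high-fat groups were apart. The log2 fold change was -1.45, SE 0.27 (edgeR adjusted p = 0.0444). Dct passed without chow control 2 (-1.53, edgeR adjusted p = 0.0487) or chow knockout 1 (-1.70, 0.00378) and in none of the other 14 such fits, nor with the covariate (-1.60, 0.197).

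Of the 3 genes that rose, Lpl encodes lipoprotein lipase, which frees fatty acids from circulating triglyceride and is made mainly outside hepatocytes in adult animals. Its level was 24.2, 28.1, 30.9 and 37.6 CPM in chow controls and 47.5, 62.1, 62.8 and 70.0 CPM in chow knockouts. It was 13.8, 18.7, 24.9 and 35.6 CPM in high-fat controls and 29.2, 37.0, 47.0 and 63.3 CPM in high-fat knockouts. The chow groups were apart, and on the high-fat diet control 3, at 35.6 CPM, lay above knockout 4, at 29.2 CPM. The log2 fold change was 0.96, SE 0.18 (edgeR adjusted p = 0.0426), a 1.95-fold higher level. Lpl also stands in the list of 20 markers of recruited macrophages, of which 9 (45%) were higher on both diets against 30.3% of all genes. The summed level of that list, Lpl included, was 202 to 286 CPM in chow controls, 226 to 326 CPM in chow knockouts, 124 to 377 CPM in high-fat controls and 165 to 458 CPM in high-fat knockouts. It overlapped on both diets and differed by 0.29 on the log2 scale (exact permutation p = 0.26, adjusted p = 0.543 over 15 measures), and its part in the Lpl result was not tested. In the covariate refit, Lpl was the only called gene that was higher (1.38, edgeR adjusted p = 0.0115). It passed in 3 of 16 fits that left out 1 liver, without high-fat control 1 (0.88, edgeR adjusted p = 0.0407), high-fat control 3 (1.11, 0.00781) or high-fat knockout 4 (1.04, 0.0367).

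In the same lists of triglyceride and fatty acid handling, Lpl was the sole called member. Of 19 triglyceride genes tested, 4 were higher and 6 lower on both diets. Agpat2, an acyltransferase of triglyceride synthesis, had -0.48, SE 0.11 (edgeR adjusted p = 0.112). Lpin1, a phosphatidate phosphatase, had 1.11, SE 0.40 (0.181). Of 13 genes of fatty acid uptake, Cd36, a fatty acid translocase, had -0.60, SE 0.29 (edgeR adjusted p = 0.257).

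Eda2r encodes the receptor of ectodysplasin A2 and is a known p53 target. It was at 0.899, 0.924, 1.26 and 1.60 CPM in chow controls and 2.37, 4.29, 4.58 and 4.77 CPM in chow knockouts. High-fat controls had 0.882, 2.20, 3.82 and 4.60 CPM, and high-fat knockouts 5.17, 5.97, 6.03 and 7.86 CPM. Every knockout was above every control on its diet, while high-fat controls 2 and 3 lay within the range of the chow knockouts. Its log2 fold change was 1.42, SE 0.27 (edgeR adjusted p = 0.0444), a 2.68-fold higher level. Eda2r passed in 3 of 16 fits that left out 1 liver, without high-fat control 1 (edgeR adjusted p = 0.0407), high-fat control 2 (0.0457) or high-fat control 3 (0.0124), with values from 1.29 to 1.62 over the 16. With the covariate it was 1.81 (edgeR adjusted p = 0.153). Of the 26 p53 target genes tested, 14 (53.8%) were higher on both diets and 1 lower on both, against 30.3% and 29.1% of all genes, and Eda2r was the only one called. Their median was 0.23, between 0.16 and 0.33 under the other scaling factors, offsets and the covariate. Cdkn1a, the p21 cell cycle inhibitor, had 1.38, SE 0.37 (edgeR adjusted p = 0.15), and Mdm2, the ligase that degrades p53, had 0.32, SE 0.09 (0.153), each with the same sign on both diets. Phlda3, an inhibitor of Akt, had 0.03 on chow and 2.42 on the high-fat diet.

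Gm44901, the third gene that rose, is a TEC gene model on chromosome 7 (chr7:121052345-121056321, plus strand of GRCm38), named after its values were seen. It was at 0, 0, 0.0692 and 0.152 CPM in chow controls, 0.683, 0.725, 0.956 and 1.01 CPM in chow knockouts, 0, 0.150, 0.271 and 0.637 CPM in high-fat controls and 0.746, 1.09, 1.95 and 2.13 CPM in high-fat knockouts. Controls were at or near 0, where the size of a fold change depends on few counts, so none is given (edgeR adjusted p = 0.0426). Of the 600 TEC and sense-intronic genes tested, 580 (96.7%) had a positive log2 fold change, with a median of 1.07, against 48.9% and -0.01 for 12607 protein-coding genes. With the covariate, which is built from these genes, Gm44901 did not pass (edgeR adjusted p = 0.489). It passed in 5 of the 16 fits that left out 1 liver.

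**Figure D4:**
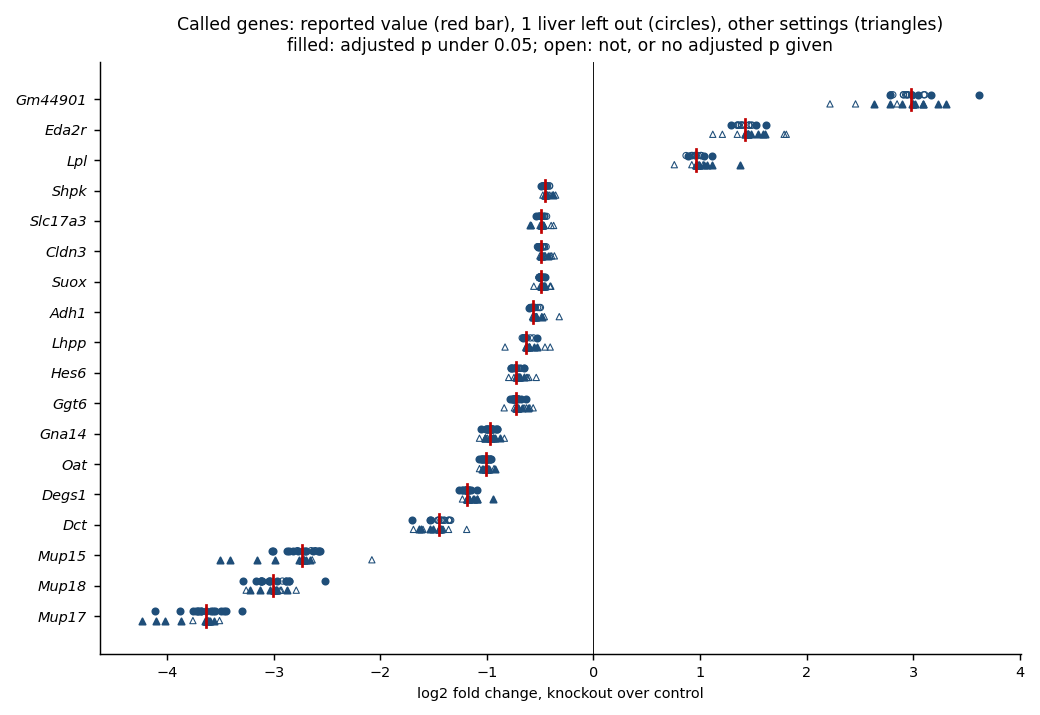
Log2 fold change of the 18 called genes as reported (red bars), with each liver left out in turn (circles) and under the other settings (triangles), filled where the adjusted p is under 0.05. No gene changes sign, and Degs1, Oat, Mup17 and Gna14 are filled in all 16 fits that left out a liver.

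Degs1, Oat, Mup17 and Gna14 were called in all 16 fits that left out 1 liver, and Degs1, Oat, Mup17 and Lpl were the 4 genes called in the refit with the unspliced share. With both high-fat control 3 and chow knockout 1 left out, 18 genes were called and 12 of them were among the 18. Of the 18, 11 passed with RLE factors, 12 with upper-quartile factors, 10 on library totals only and 14 with length and GC offsets. At the edge of the threshold, Slc17a3 (adjusted p = 0.0448) and Adh1 (0.0492) were the last inside by edgeR. Prnp, the prion protein gene, and Sdc1, a heparan sulfate proteoglycan, were just outside at -0.41 and -0.45, as were Mup11 at -1.46, Ppox, a haem synthesis enzyme, at 0.82 and Ano10, of the anoctamin family, at 0.60 (edgeR adjusted p = 0.0968 each).

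Across all genes, the knockout effects on chow and on the high-fat diet, which share no liver, had the same sign for 8538 of 14351 (59.5%). The correlation between them across genes was 0.34 (Pearson) and 0.269 (Spearman), as a description over genes, which are not independent replicates. In the covariate refit it was 0.21 (Pearson), with 54.3% of the same sign, and without high-fat control 3 and chow knockout 1 it was 0.201, with 54.5%. Of the 325 genes with an unadjusted p under 0.01 on chow, 203 (62.5%) had the same sign on the high-fat diet. Of the 1117 such genes on the high-fat diet, 690 (61.8%) had the same sign on chow.

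By separation of the livers alone, 106 genes (0.739%) were apart in the same direction on both diets, 18 higher (0.125%) and 88 lower (0.613%), and 36 (0.251%) were apart in opposite directions. On single diets, 910 (6.34%) were apart on chow and 1900 (13.2%) on the high-fat diet. The 88 lower genes were all protein-coding, with a median log2 fold change of -0.42 and a range from -3.64 to -0.18. The 18 higher ones held 7 TEC or sense-intronic gene models and 9 protein-coding genes, with a median of 1.40. The split was 44 higher and 33 lower on library totals without scaling factors. Of the 18 higher genes 1 stood in a gene list and of the 88 lower genes 20 did. The share of all genes tested that stand in a list was not counted, so neither count can be read as a result about the lists or the direction. Among the 20 lower members were 7 of the 43 nuclear-encoded respiratory chain genes tested, against 0.613% of all genes. Others were Acaa2, the thiolase of mitochondrial fatty acid oxidation (-0.35, SE 0.10, edgeR adjusted p = 0.153), Gstz1, a glutathione transferase of tyrosine breakdown (-0.48, SE 0.14, 0.153), and Psmb1, a proteasome subunit (-0.46, SE 0.15, 0.161). Outside the lists and chosen after their values were seen, Hpd, an enzyme of tyrosine breakdown, had -0.55 and Hao1, the liver glycolate oxidase, had -0.53, and neither passed.

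In the pathway of Degs1 itself, no other gene passed. Of 9 genes of de novo sphingolipid synthesis tested of 14, Degs1 was called, and 3 were lower and 1 higher on both diets. Cers2, the ceramide synthase of very long acyl chains, was at 290.5, 320.2, 361 and 382 CPM in chow controls, 258, 278, 279 and 329 CPM in chow knockouts, 287, 289, 294 and 357 CPM in high-fat controls and 223, 229, 242 and 242 CPM in high-fat knockouts. The groups overlapped on chow and were apart on the high-fat diet, and Cers2 did not pass at -0.32, SE 0.09 (edgeR adjusted p = 0.153). Sptlc1, a subunit of the serine palmitoyltransferase that starts the pathway, had -0.28, SE 0.11 (edgeR adjusted p = 0.195). The 3 Ormdl genes encode inhibitors of that enzyme. Ormdl2 was apart on both diets at -0.40, SE 0.12 (edgeR adjusted p = 0.153), and Ormdl3 had -0.33, SE 0.11 (0.158). Ormdl1 had 0.03 on chow and -1.02 on the high-fat diet. The Ormdl median was -0.40, and -0.14 with the covariate. Of 18 genes of complex sphingolipids, Smpd1, the acid sphingomyelinase that returns ceramide from sphingomyelin, was apart on both diets at -0.35, SE 0.08 (edgeR adjusted p = 0.123). Cerk, the ceramide kinase, had 0.47, SE 0.15 (0.156). Of 12 genes of ceramidases and sphingosine 1-phosphate, 0 passed, with S1pr1, a receptor of that lipid, at -0.45, SE 0.14 (edgeR adjusted p = 0.156).

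Large groups of housekeeping genes had averages below 0 without a called member. All 43 nuclear-encoded respiratory chain genes had a negative log2 fold change, with a median of -0.39 (-0.17 on chow and -0.62 on the high-fat diet). Of them 40 (93%) were lower on both diets against 29.1% of all genes. The 8 mitochondrially encoded genes tested went the other way on average, all above 0 with 0 called. Their median was 0.54 (1.05 on chow and -0.06 on the high-fat diet), and 0.15 with the covariate. Cox5b, a cytochrome oxidase subunit, had -0.56, SE 0.13 (edgeR adjusted p = 0.123), and Uqcrc1, a subunit of complex III, had -0.43, SE 0.10 (0.126). All 46 ribosomal protein genes were below 0, with a median of -0.34, and 26 of 27 proteasome genes, with a median of -0.30. The direction did not flip under the other scaling factors, where library totals alone, which move the median of all genes to 0.10, gave -0.28, -0.23 and -0.20. In the covariate refit the medians were -0.05 for the respiratory chain, 0.08 for ribosomal proteins and 0.03 for the proteasome. Without high-fat control 3 and chow knockout 1 they were -0.23, -0.17 and -0.16. The 6 nuclear noncoding RNAs tested, Meg3 among them at 2.25, SE 0.69 (edgeR adjusted p = 0.154), were all higher on both diets with a median of 1.02, and 0.12 with the covariate. The share itself differed between genotypes, so the covariate fit cannot tell the 2 apart.

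Several lists of hepatocyte functions had small negative medians, though not all, with 0.06 for fatty acid synthesis and 0.16 for insulin signalling. Neither kept its sign under every setting. Fatty acid synthesis had 0.20 with the covariate and -0.07 with length and GC offsets. Insulin signalling had -0.09 with the covariate, where 22 of 27 genes were below 0 against 5 in the main fit, and 0 with the offsets. The 12 hepatocyte markers had a median of -0.21 (-0.08 on chow and -0.34 on the high-fat diet), with 10 (83.3%) lower on both diets and 0 called, and -0.07 with the covariate. The part of this shift in the other lists was not tested. The endoplasmic reticulum chaperone and translocation list had a median of -0.24, with 20 of 29 (69%) lower on both diets and 0 called, and -0.20 with the covariate. P4hb, a disulfide isomerase, had -0.42, SE 0.12 (edgeR adjusted p = 0.15), and Calr, a calcium-binding chaperone, had -0.46, SE 0.14 (0.154). The complement and coagulation list had a median of -0.20 with 24 of 34 (70.6%) lower on both diets and 0 called, and -0.05 with the covariate. Fatty acid oxidation genes had a median of -0.22 (-0.04 on chow and -0.43 on the high-fat diet), with 19 of 30 (63.3%) lower on both, and 0.03 with the covariate. Among fatty acid hydroxylases, Cyp4a14 had -2.31, SE 0.61 (edgeR adjusted p = 0.147), with chow controls at 28.8 to 1367 CPM. Srebf1, the regulator of fatty acid synthesis, had -1.68 on chow and -0.21 on the high-fat diet, and did not pass on average (-0.94, SE 0.24, edgeR adjusted p = 0.146). Of 19 fatty acid synthesis genes 0 passed, with Scd1, the stearoyl-CoA desaturase, at 0.80, SE 0.43 (edgeR adjusted p = 0.297).

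Several groups of stromal and immune genes had averages made of unlike values on the 2 diets. The fibrillar collagen list had a median of 0.00 on chow and 0.51 on the high-fat diet. Of its genes 11 of 25 (44%) were higher on both, against 30.3% of all genes. Col1a1 had 0.07 on chow and 2.57 on the high-fat diet, and its average of 1.36, SE 0.40, did not pass (edgeR adjusted p = 0.153). The interferon list had a median of -0.15 on chow and 0.77 on the high-fat diet, with 4 of 30 (13.3%, against the same 30.3%) higher on both. Mx2, an antiviral GTPase, was among those 4 at 0.34 and 1.04. Tgfb1, the profibrotic cytokine, had 0.22 and 0.83, with an average of 0.53, SE 0.15 (edgeR adjusted p = 0.153). In these lists 0 genes were called in the average effect, and the difference between the diets was tested per gene only, with 0 calls as above.

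**Figure D5:**
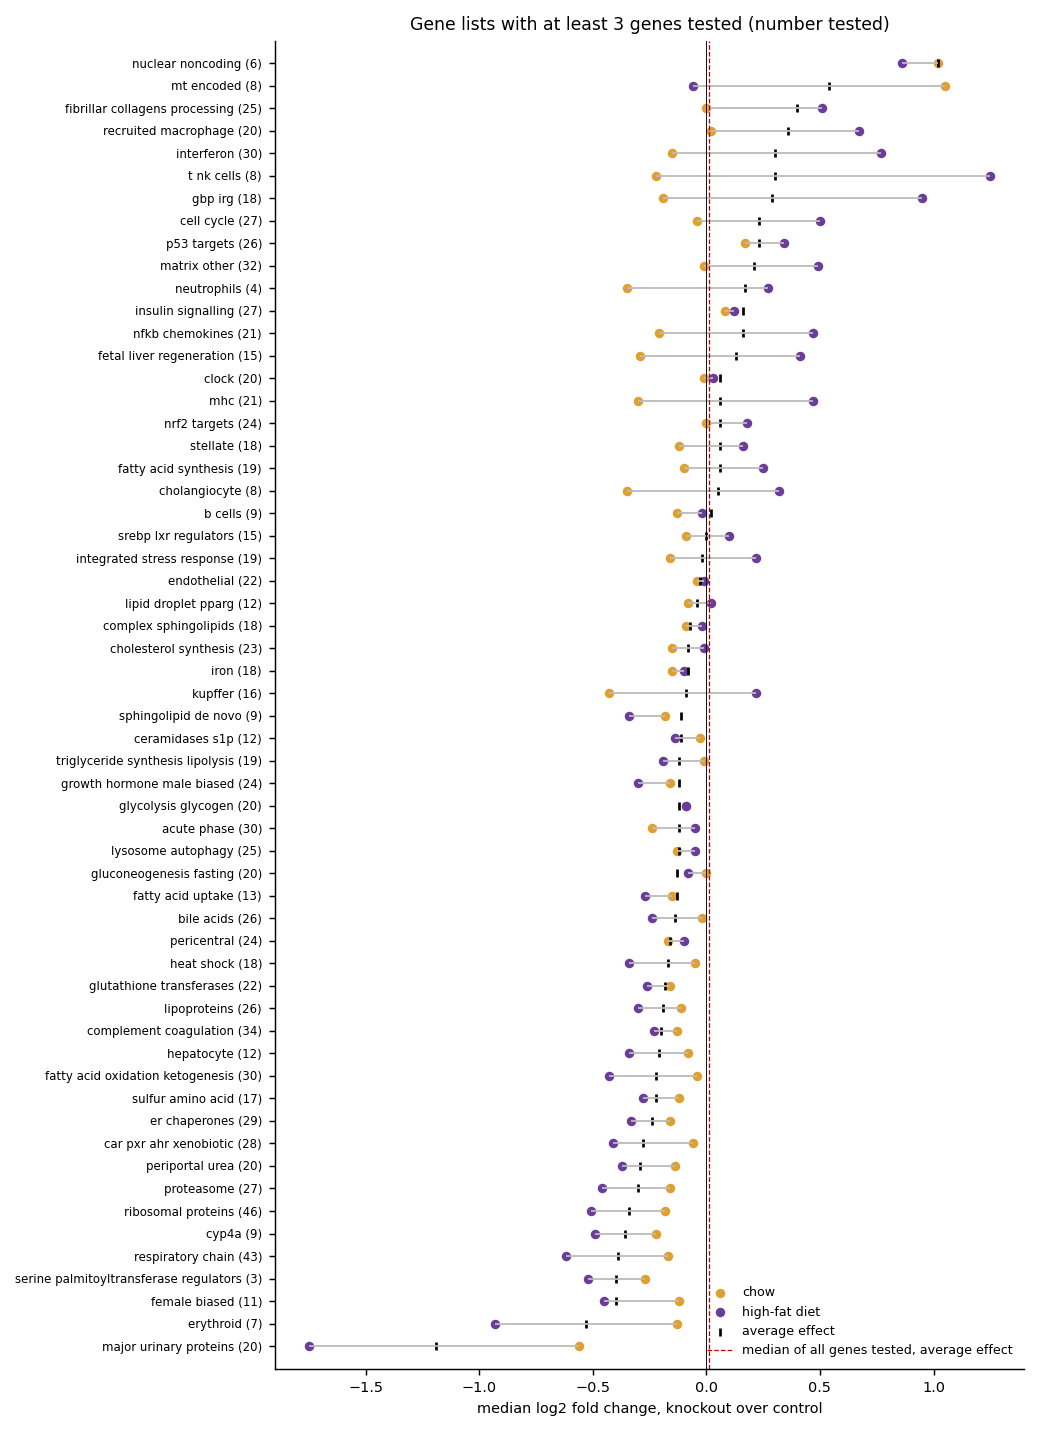
Median log2 fold change of each gene list with at least 3 genes tested, on chow (orange), on the high-fat diet (purple) and in the average effect (black ticks), with the number of genes tested in brackets. Major urinary proteins, at -1.19, lie lowest, and the interferon list runs from -0.15 on chow to 0.77 on the high-fat diet.

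RefSeq promoters, 250 bases before the start, were matched for 15 of the 18 called genes, in 16 windows. The letters TTCNNNGAA, a palindromic STAT motif, occurred in 7.02% of 32851 promoters and in that of 1 called gene, Slc17a3. CTTTGAT, a TCF/LEF motif searched on both strands, occurred in 3.21% of all promoters and in 0 of the called genes' windows. These counts describe letters in these windows only.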

How the data were processed

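RNA was measured in 16 livers. Values are raw gene-level read counts in a deposited table, not normalized by the authors, since its values are whole and its totals unequal. The submitters' processing notes name GRCm38, STAR 2.5.4a, featureCounts 1.5.1 and DESeq2, without their roles. Strand setting and annotation release: not given in the sources used here. Every one of the 16 columns matched a label. GENCODE M21, of that build, gave a symbol, class and position for 53706 of 53801 gene IDs, and the rest held 0.00448% of counts. For the 24 pairs of livers of the same group, the chi-square over its degrees of freedom ran from 12.28 to 125.57, so no pair looked like a repeat of the same library. The labels do not say whether livers were processed together, and p-values measure the spread between these livers.

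The filter was filterByExpr (minimum count 10), which left 14351 genes, and the scaling TMM. edgeR 4.0.16 (R 4.3.3) fitted an additive model of diet and genotype, with a common biological coefficient of variation of 0.253. Quasi-likelihood F tests were adjusted by Benjamini-Hochberg across these genes at a threshold of 0.05. Effects within diets, and their difference, came from a 4-group model. SE was computed as the size of the log2 fold change divided by √F. The members, gene lists and tests were chosen with earlier results of these data known. The rule for names took Degs1, up to 15 called genes per direction (mean log2 CPM at least 1, the same sign and groups apart on both diets, numbered gene models passed over) and, from each list, up to 4 genes of lowest p, some left out for length. Alternatives were DESeq2 1.42.0, limma 3.58.1, other scalings, filters, designs, thresholds, offsets and covariates, and each liver left out. On simulated counts (14068 genes tested) the additive model recovered 25.4% of changes of 0.5, 77.6% of 1 and 100% of 2 on the log2 scale, with 10 false calls. Counts were drawn independently for each gene, with these changes planted in 67, 67 and 66 genes above a minimum mean count. That is far more changes than genes called here, which makes the threshold easier to pass. Shifts of whole libraries, as in the unspliced share, were not simulated, so the recovered shares can be too high for these livers.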

Additional observations from a re-analysis of the deposited data

Results flagged for a closer look

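The check covered only the 18 called genes and 3 library measures, in 84 groups of 4 livers. Of these groups 3 held a liver far from the other 3, all among the high-fat knockouts, and chance flags about 1 in 20 groups. Hes6 was at 26.7 CPM in the lowest liver against 29.7 to 29.9 CPM in the others, all of them under every high-fat control. The unspliced share was 0.191% in the highest liver against 0.162 to 0.166%. Malat1 was at 2940 CPM in the lowest liver against 3470 to 3510 CPM.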

How the results depend on the processing

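No paired analysis was possible because every liver has its own number and no number is shared between groups. All 18 called genes kept their sign wherever they were tested. The counts of called genes (higher, lower) moved most with the tool and filter: DESeq2 119 and 135, limma-voom 5 and 15, quality weights 15 and 44, no filter 509 and 359 (36204 genes tested, median of all genes 0.35), the average in the 4-group model 7 and 18. They were 2 and 9 with RLE factors, 3 and 9 with upper quartiles, 3 and 7 on totals only, 1 and 24 with length and GC offsets, and 1 and 3 with the unspliced share. Fewer samples or a lost term gave 0 and 3 (no diet term), 0 and 1 on chow alone and 0 and 1 on the high-fat diet alone. Thresholds of 0.1 and 0.01 gave 5 and 18, and 0 and 4. Apart from these last and the fits of fewer samples, the cause was not tested. Without 1 liver the counts were 0 to 12 higher and 5 to 13 lower: 12 and 12 without high-fat control 1, and 0 and 5 without high-fat knockout 2. The interaction count was 83 by DESeq2, 9 with quality weights, 259 with no filter and 0 to 1 without 1 liver. Genes apart on both diets numbered 28 higher and 58 lower with upper quartiles, 44 and 33 on totals only, and 48 higher without high-fat control 3 and chow knockout 1. Groups with fewer livers are more easily apart, so counts with livers left out tend to rise for that reason alone. Without 1 liver the genes apart on both diets were 22 to 85 higher and 81 to 177 lower. The Degs1 difference in mean log2(CPM + 1), -1.17 with all livers, was then -1.23 to -1.07. Its edgeR log2 fold change was -1.26 to -1.09 without 1 liver and -1.23 to -0.94 over the other settings. Of 216 named uncalled genes, 42 changed sign at least once, 67 of 6864 values in all. Of these values 139 passed in the same direction and 0 in the opposite one, so that a gene reported as not passing can pass under another setting. In the simulation at this depth and spread, changes of 0.5 on the log2 scale were mostly missed.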
